A study of Mus musculus with 32 samples.

Results

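Closely spaced DMC1 intervals are the DMC1 ChIP-seq intervals of one mouse strain whose midpoint lies within 10 kb of the midpoint of another interval of the same strain on the same chromosome. By that distance 1567 of 15195 intervals were chosen in RJ2 testes (10.3%, 95% exact binomial interval 9.83 to 10.8%) and 1288 of 14774 in B6 testes (8.72%, 8.27 to 9.18%). RJ2 is B10.MOLSGR(A)-(D17Mit58-D17Jcs11)/Bdm, a congenic strain that carries the Prdm9 Cst allele, and B6 is C57BL/6JOlaHsd, which carries Prdm9 Dom2. DMC1 was precipitated from whole testes at 5 weeks, with 2 replicates in each strain and no input library. The intervals were set beside PRDM9 ChIP-seq of RJ2, B6, Prdm9 KO (B6;129P2-Prdm9tm1Ymat/J, 1 ChIP library) and Spo11 KO (Spo11tm1M, Prdm9 Dom2) whole testes at 13 days, and beside H3K4me3 ChIP-seq of pachytene cells enriched from adult RJ2 and B6 testes by elutriation, with 1 ChIP library in each strain. The deposited lists are positions pooled over replicates, so every error given here covers the sampling of intervals and not the spread between mice.

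DMC1 is the meiosis-specific recombinase that coats the single-stranded DNA at resected double-strand breaks, so a DMC1 interval marks a place where breaks form in a population of spermatocytes. In mice most of these places are chosen by PRDM9, a protein with a zinc finger array that reads DNA and a methyltransferase domain that places H3K4me3 on the nucleosomes next to its site. SPO11 then makes the break. The zinc fingers differ between Prdm9 alleles, so strains with different alleles break their chromosomes at largely different places.

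Each strain's intervals were enriched for a different DNA sequence, which was found at closely spaced intervals about as often as at the others. On odd-numbered chromosomes a position matrix of 21 columns was built for each strain from the central 200 bp of its DMC1 intervals, starting from the 9-base word most enriched there, and was then searched for on both strands of the even-numbered chromosomes. With N at every position where no base reached 50% of the sites, the matrices read GNCTNGGNCTGTGNCNNTTNN in RJ2 and NNAGNTGCTGCTGCCNNNTNN in B6. A site was called above the score that 5% of 200-bp windows 1 kb to either side reached on the odd-numbered chromosomes. On even-numbered chromosomes a site lay in 383 of 691 closely spaced RJ2 intervals (55.4%, where 52.1% of all RJ2 intervals held one) and in 303 of 582 closely spaced B6 intervals (52.1%, where 51.2% of all B6 intervals held one), while 5.43% of the flanking windows of those RJ2 intervals and 5.50% of those of the B6 intervals did. The matrices were added after other values had been seen.

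Some pairs carried PRDM9 and a site at both intervals. The pairs shown were chosen for this, so the likeness of their sites is fixed by the choice. On even-numbered chromosomes there were 26 such pairs in RJ2 and 3 in B6, counting groups of exactly 2 intervals, and the 2 closest pairs of each strain are printed, with the matrix site in capitals, the 30 bases on either side in lower case, and the strand on which the site reads (mm9). RJ2 pair A lies inside Adk, the gene of adenosine kinase, with midpoints 2091 bp apart, at chr14:22040889-22040969 and chr14:22042930-22043010, both on the + strand. RJ2 pair B lies inside Dlg1, the gene of a membrane scaffold protein, 2223 bp apart, at chr16:31825539-31825619 (+ strand) and chr16:31827813-31827893 (- strand). B6 pair A is intergenic, 5410 bp apart, at chr12:98832179-98832259 (+ strand) and chr12:98837668-98837748 (- strand). B6 pair B is intergenic, 7002 bp apart, at chr6:90832328-90832408 and chr6:90839425-90839505, both on the - strand.
RJ2 pair A, first interval: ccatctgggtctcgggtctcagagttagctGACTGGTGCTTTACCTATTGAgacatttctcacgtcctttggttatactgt
RJ2 pair A, second interval: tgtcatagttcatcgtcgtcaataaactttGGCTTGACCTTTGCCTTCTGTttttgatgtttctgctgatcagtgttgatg
RJ2 pair B, first interval: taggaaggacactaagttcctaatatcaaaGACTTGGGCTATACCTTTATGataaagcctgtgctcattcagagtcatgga
RJ2 pair B, second interval: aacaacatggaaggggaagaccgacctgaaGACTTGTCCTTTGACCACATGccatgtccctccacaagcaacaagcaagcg
B6 pair A, first interval: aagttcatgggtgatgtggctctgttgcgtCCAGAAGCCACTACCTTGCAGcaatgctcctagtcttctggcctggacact
B6 pair A, second interval: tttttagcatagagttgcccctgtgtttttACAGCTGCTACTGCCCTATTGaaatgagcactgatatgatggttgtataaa
B6 pair B, first interval: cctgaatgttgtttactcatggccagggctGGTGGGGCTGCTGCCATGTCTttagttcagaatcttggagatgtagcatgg
B6 pair B, second interval: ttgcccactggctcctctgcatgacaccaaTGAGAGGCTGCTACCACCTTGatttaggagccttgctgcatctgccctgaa
Each of these 8 intervals also carried strain-specific H3K4me3. The 2 sites of a pair took both relative directions. Of the pairs with a site at both intervals, on all chromosomes, the sites read on the same strand in 106 of 212 in RJ2 (50%, exact interval 43.1 to 56.9%) and in 85 of 166 in B6 (51.2%, 43.3 to 59.0%), so that neither direction was in the majority beyond counting error.

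Close neighbours were scarce below 5 kb and not above it. The rule fixes the distances, so what follows on spacing and width is a description without a test. In both strains the closest midpoints were more than 1 kb apart, 1273 bp in RJ2 and 1232 bp in B6, and the median distance to the nearest midpoint was 6410 bp among the RJ2 intervals chosen and 6780 bp among those of B6. Between 0 and 2.5 kb, RJ2 had 76 pairs of midpoints, 28.1% of the number per kb found between 10 and 100 kb (22.1 to 35.1%, exact Poisson interval of the count), and B6 had 35 pairs, 14.0% of that number (9.72 to 19.4%). Between 2.5 and 5 kb the numbers were 56.2% in RJ2 (152 pairs) and 47.5% in B6 (119 pairs). From 5 to 7.5 kb they reached 123% in RJ2 (110 to 137%) and 101% in B6 (89.2 to 115%), and from 7.5 to 10 kb 97.2% in RJ2 and 106% in B6. The low numbers thus ended at about the same distance in both strains. Leaving out the intervals of Mid1, described later, gave 27.5% in RJ2 and 13.2% in B6 up to 2.5 kb.

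Moving each list around its chromosomes by 20 fixed distances of 1 to 20 Mb and counting intervals near a moved midpoint gave a similar picture. Within 5 kb, 448 RJ2 intervals had a neighbour, against 844 to 930 with the moved lists (median 877), and 302 B6 intervals did, against 785 to 921 (median 854). Within 10 kb the numbers were 1567 in RJ2, against 1677 to 1781 with the moved lists, and 1288 in B6, against 1538 to 1798. All 40 moved lists therefore gave more near neighbours than the lists as deposited, at both limits. The counts within 10 kb include those within 5 kb, so they do not show a lack between 5 and 10 kb. The intervals of one strain near those of the other strain showed no such lack: between RJ2 and B6 there were 1184 pairs of midpoints within 5 kb, 114% of the number per kb between 10 and 100 kb (108 to 121%). Called intervals of one strain seldom overlap, while a moved list or the other strain's intervals can lie on them. The part of interval width in the lack, here and in the numbers per kb above, was not tested.

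**Figure D1:**
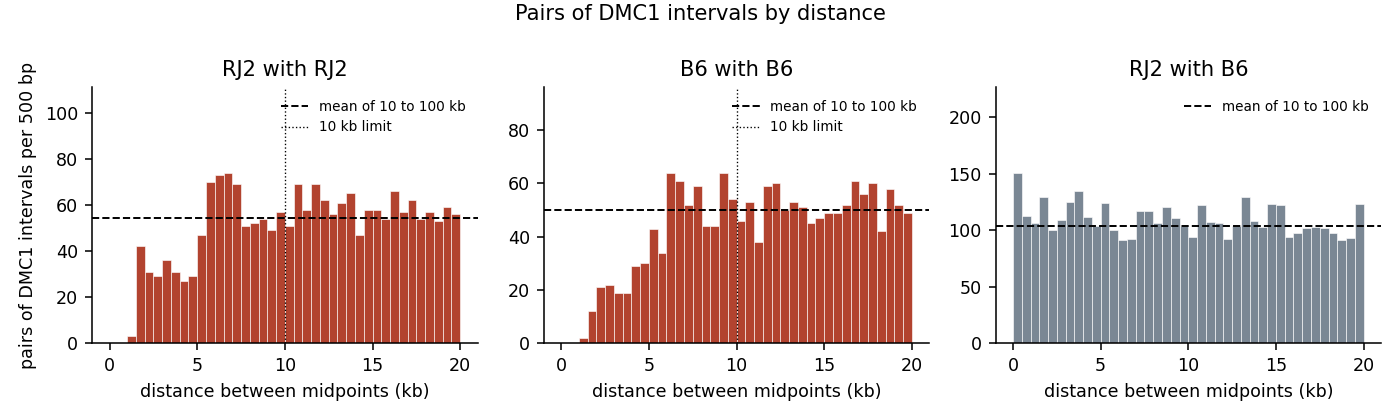
Pairs of DMC1 intervals (y axis, pairs per 500 bp) by the distance between their midpoints (x axis, kb), within RJ2, within B6 and between the strains, with the mean of 10 to 100 kb as a dashed line and the 10 kb limit as a dotted line. Within each strain the bars stay low up to about 5 kb (28.1% of the mean in RJ2 and 14.0% in B6 up to 2.5 kb), and between the strains they do not.

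PRDM9 intervals did not show the same gap in RJ2. The spacing of these lists, and of RJ2 against B6 intervals, was added after the data had been seen. Midpoints of the RJ2 PRDM9 list lay within 5 kb of each other 419 times, 123% of the number per kb between 10 and 100 kb (111 to 135%), and the B6 PRDM9 list held 16 such pairs (74.2%, 42.4 to 121%), too few to tell a lack from none. RJ2 PRDM9 intervals had a median width of 552 bp, below the 1706 bp of the other RJ2 DMC1 intervals, so their midpoints can lie closer together. From 2.5 to 5 kb alone, RJ2 PRDM9 pairs were at 125% (109 to 143%) and RJ2 DMC1 pairs at 56.2%. The part of width in this difference was not tested. Of 10121 RJ2 PRDM9 intervals, 67.5% lay on the central 400 bp of a DMC1 interval. By the same central 400 bp, 19 of 204 neighbouring RJ2 PRDM9 pairs up to 2.5 kb apart (9.31%, 5.70 to 14.2%) lay on 2 different DMC1 intervals. Of the rest, 80 had DMC1 at 1 alone, 4 shared 1 DMC1 centre and 101 touched no DMC1 centre. A pair that flanks the centre of 1 DMC1 interval is counted among the last. From 2.5 to 5 kb, 46 of 194 pairs lay on 2 DMC1 intervals (23.7%), from 5 to 7.5 kb 67 of 210 (31.9%), from 10 to 20 kb 208 of 569 (36.6%), and from 20 to 50 kb 553 of 1383 (40%, 37.4 to 42.6%). The share with DMC1 at 1 of the pair alone was 39.2% up to 2.5 kb and 41.0% from 20 to 50 kb. What changed with distance was thus the share with a DMC1 centre at both and the share with a DMC1 centre at neither, 101 of 204 pairs up to 2.5 kb and 263 of 1383 from 20 to 50 kb. Only close pairs can flank 1 centre, so this way of counting can raise the share with neither at short distances. How much it did was not tested. The part that peak calling on pooled DMC1 reads had in the low numbers below 5 kb was not tested. In B6 only 33 PRDM9 pairs lay within 10 kb.

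Most closely spaced intervals came in groups of 2. RJ2 had 714 groups of 2, 40 of 3, 3 of 4 and 1 of 7, and B6 had 595 of 2, 29 of 3, 1 of 4 and 1 of 7. The chosen intervals were narrower than the rest, with a median width of 1618 bp against 1706 bp for the other intervals in RJ2, and 1673 bp against 1757 bp in B6. Width followed the distance to the neighbour: in RJ2 the median was 1442 bp up to 2.5 kb, 1472 bp from 2.5 to 5 kb, 1650 bp from 5 to 7.5 kb and 1710 bp from 7.5 to 10 kb, and in B6 it was 1410, 1508, 1694 and 1762 bp in the same steps. Intervals 10 to 20 kb from a neighbour had medians of 1714 bp in RJ2 and 1766 bp in B6, so the medians up to 7.5 kb were below those farther out in both strains, and most so up to 5 kb. Few neighbours overlapped, 5 in RJ2 and 1 in B6, and the median gap between the edges of a pair was 4763 bp in RJ2 and 5121 bp in B6. The widest interval chosen was 3598 bp in RJ2 (chr12:113765860-113769457, 18288 bp from Tmem179) and 4634 bp in B6 (chrX:139330138-139334771, an intron of Ammecr1).

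The limit of 10 kb cut through an even stretch of distances. The last pair inside it in RJ2 was 9993 bp apart, on chr8:87239172-87241795 and chr8:87249655-87251298 in Nfix, the gene of a transcription factor of the nuclear factor I family, and both intervals carried PRDM9 and strain-specific H3K4me3. The first RJ2 pair outside it was 10023 bp apart, on chr3:9052608-9054883 and chr3:9062943-9064594 near Tpd52, with no PRDM9 and with H3K4me3 at 1 interval. In B6 the last pair inside was 9989 bp apart in introns of Dab2ip (chr2:35496910-35498707 and chr2:35506995-35508600), with PRDM9 at 1 interval and no strain-specific H3K4me3. The first B6 pair outside was 10001 bp apart near Fgf16 (chrX:102913047-102914710 and chrX:102922973-102924786), with no PRDM9 and with H3K4me3 at 1 interval.

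**Figure D2:**
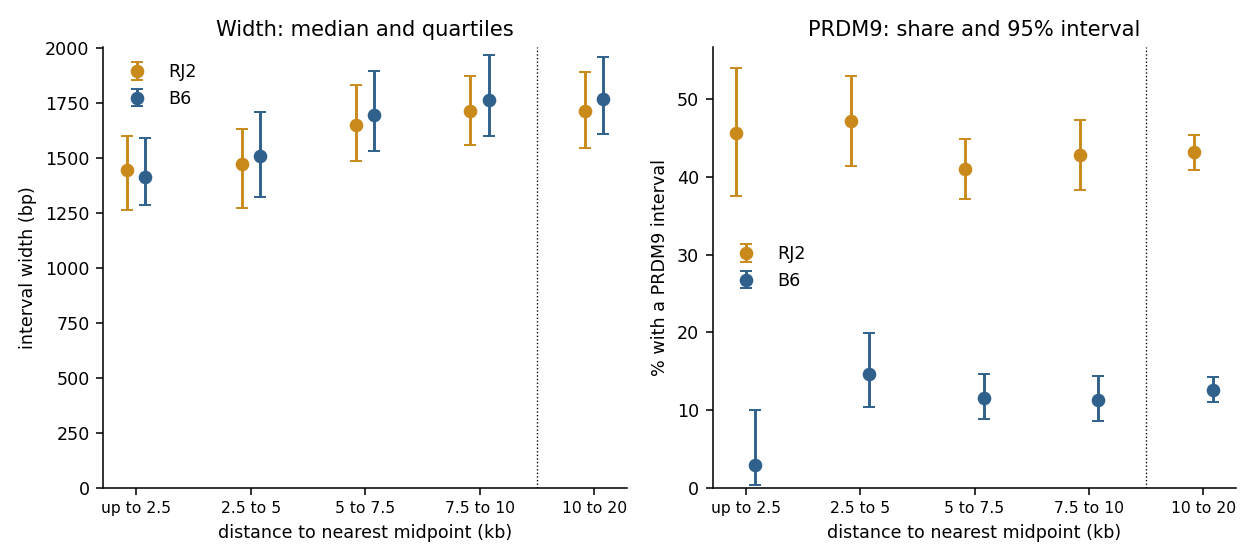
Width of DMC1 intervals (left, bp, median and quartiles) and share with a PRDM9 interval of the same strain (right, %, with 95% exact binomial intervals) by the distance to the nearest midpoint of the same strain (kb), with RJ2 in yellow and B6 in blue and the dotted line at 10 kb. Median width is lowest up to 2.5 kb, at 1442 bp in RJ2 and 1410 bp in B6.

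PRDM9 was found at closely spaced intervals about as often as at the others. A mark was counted where it touched the central 400 bp of the DMC1 interval. In RJ2, PRDM9 lay at 676 of the closely spaced intervals (43.1%, 40.7 to 45.6%), against 45.1% of the other intervals and 44.9% of all RJ2 intervals. In B6 it lay at 148 (11.5%, 9.80 to 13.4%), against 12.7% of the others and 12.6% of all. The odds ratio of closely spaced over other intervals was 0.92 in RJ2 (95% interval 0.82 to 1.03, adjusted p = 0.408) and 0.89 in B6 (0.74 to 1.08, adjusted p = 0.437), from binomial (logistic) regression across all intervals of a strain with errors by group of neighbours and Benjamini-Hochberg adjustment over 15 tests. PRDM9 of Spo11 KO testes, which carry the B6 allele but make no breaks, lay at 74 closely spaced B6 intervals (5.75%), against 6.76% of the others and 6.67% of all (odds ratio 0.84, adjusted p = 0.408, n = 14774). With the width of the interval in the binomial model the odds ratio for PRDM9 was above 1 in both strains, 1.18 in RJ2 (adjusted p = 0.0549) and 1.13 in B6 (adjusted p = 0.446). By distance, PRDM9 lay at 69 of 151 RJ2 intervals with a neighbour up to 2.5 kb away (45.7%, 37.6 to 54.0%). In B6 it lay at 2 of 70 such intervals (2.86%, 0.348 to 9.94%), and the 12.7% of the others lay above that interval. At 2.5 to 5 kb it lay at 140 of 297 RJ2 intervals (47.1%) and 34 of 232 B6 intervals (14.7%, 10.4 to 19.9%). These exact intervals take neighbours as independent, and the distance steps were not compared by a test.

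Strain-specific H3K4me3, the intervals of this mark found in one strain and not in the other, was likewise at similar shares. It lay at 1244 closely spaced RJ2 intervals (79.4%, 77.3 to 81.4%), against 81.1% of the others and 80.9% of all (odds ratio 0.90, 0.78 to 1.04, adjusted p = 0.408, n = 15195). In B6 it lay at 530 (41.1%, 38.4 to 43.9%), against 40.3% of the others and 40.4% of all (odds ratio 1.03, 0.91 to 1.18, adjusted p = 0.651, n = 14774). With the width in the binomial model the odds ratio was 1.08 in RJ2 (adjusted p = 0.446) and 1.33 in B6 (adjusted p = 0.00137), so the B6 call depended on width. Keeping 1 interval per group in RJ2, always the leftmost, gave 0.76 in the same binomial regression (adjusted p = 0.0351). Left and right intervals were not alike in this mark. Of the 192 RJ2 groups of 2 with it at 1 interval alone, the right one carried it in 117. Keeping the rightmost interval was not tested, so the value of 0.76 holds for the leftmost alone. Neither mark was found at 246 closely spaced RJ2 intervals (15.7%), against 14.4% of the others, or at 697 closely spaced B6 intervals (54.1%), against 55.0% of the others, counting common H3K4me3 as a mark as well. Both PRDM9 and strain-specific H3K4me3 were found at 627 closely spaced RJ2 intervals (40%, against 42.3% of the others) and 134 closely spaced B6 intervals (10.4%, against 11.2% of the others).

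Common H3K4me3 comprises the intervals found in both strains, most of which the study reports at transcription starts or testis enhancers. It lay at 54 closely spaced RJ2 intervals (3.45%), against 3.30% of the others and 3.32% of all, and at 53 closely spaced B6 intervals (4.11%), against 3.74% of the others and 3.77% of all, with adjusted p of 0.770 in RJ2 and 0.612 in B6. A transcription start lay within 1 kb of 69 closely spaced RJ2 midpoints (4.40%, against 4.04% of the others and 4.08% of all) and of 67 closely spaced B6 midpoints (5.20%, against 3.89% of the others and 4.01% of all), with odds ratios from binomial regression of 1.09 in RJ2 (adjusted p = 0.612) and 1.35 in B6 (p = 0.0335, adjusted p = 0.184). The start nearest to a chosen midpoint was 8 bp away in RJ2, that of Sptlc3 (chr2:139318668-139320613), which encodes a subunit of serine palmitoyltransferase. PRDM9 intervals called in Prdm9 KO testes, which lack the protein, lay at 4 closely spaced intervals in each strain, 0.255% in RJ2 against 0.110% of the others and 0.125% of all, and 0.311% in B6 against 0.0742% of the others and 0.0948% of all (binomial regression, adjusted p = 0.437 in RJ2 and 0.184 in B6). In each strain 2 of these 4 belong to the group of 7 in Mid1.

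The word from which each matrix was built was rare, and its share at closely spaced intervals did not pass the test. On even-numbered chromosomes the RJ2 word GAATGTGAC, on either strand, lay in the central 200 bp of 7 closely spaced RJ2 intervals (1.01%), against 1.84% of the others and 1.76% of all (adjusted p = 0.408, n = 6883). The B6 word GCTACTGCC lay in 13 closely spaced B6 intervals (2.23%), against 1.69% of the others and 1.74% of all (adjusted p = 0.505, n = 6721). For the matrix sites, which were found in more intervals, the odds ratio was 1.16 in RJ2 (0.99 to 1.36, adjusted p = 0.0932 over 4 added tests, n = 6883), with a site in 55.4% of the closely spaced and 51.8% of the other intervals. In B6 it was 1.04 (0.88 to 1.23, adjusted p = 0.655, n = 6721), with 52.1% of the closely spaced and 51.1% of the others. Closely spaced RJ2 intervals with PRDM9 held a site in 189 of 312 cases (60.6%, 54.9 to 66.0%) and those without PRDM9 in 194 of 379 (51.2%, 46.0 to 56.3%). In B6 the shares were 40 of 77 with PRDM9 (51.9%) and 263 of 505 without (52.1%).

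None of the 15 odds ratios passed the adjusted threshold of 0.05, and 3 of them had p below 0.05 before adjustment, all in B6. They were those for a transcription start, for PRDM9 of Prdm9 KO testes, and for a DMC1 midpoint of the other strain within 10 kb. The last was found at 236 closely spaced RJ2 intervals (15.1%, against 14.0% of the others and 14.1% of all, odds ratio 1.09, adjusted p = 0.545, n = 15195) and at 220 closely spaced B6 intervals (17.1%, against 13.9% of the others and 14.2% of all, odds ratio 1.27, p = 0.0174, adjusted p = 0.184, n = 14774). By Fisher's exact test, which takes neighbours as independent, the adjusted p of the last B6 value was 0.0393. The ratio of the RJ2 odds ratio over the B6 odds ratio was tested for 7 marks in a binomial model of both strains, and none passed (smallest adjusted p = 0.479).

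**Figure D3:**
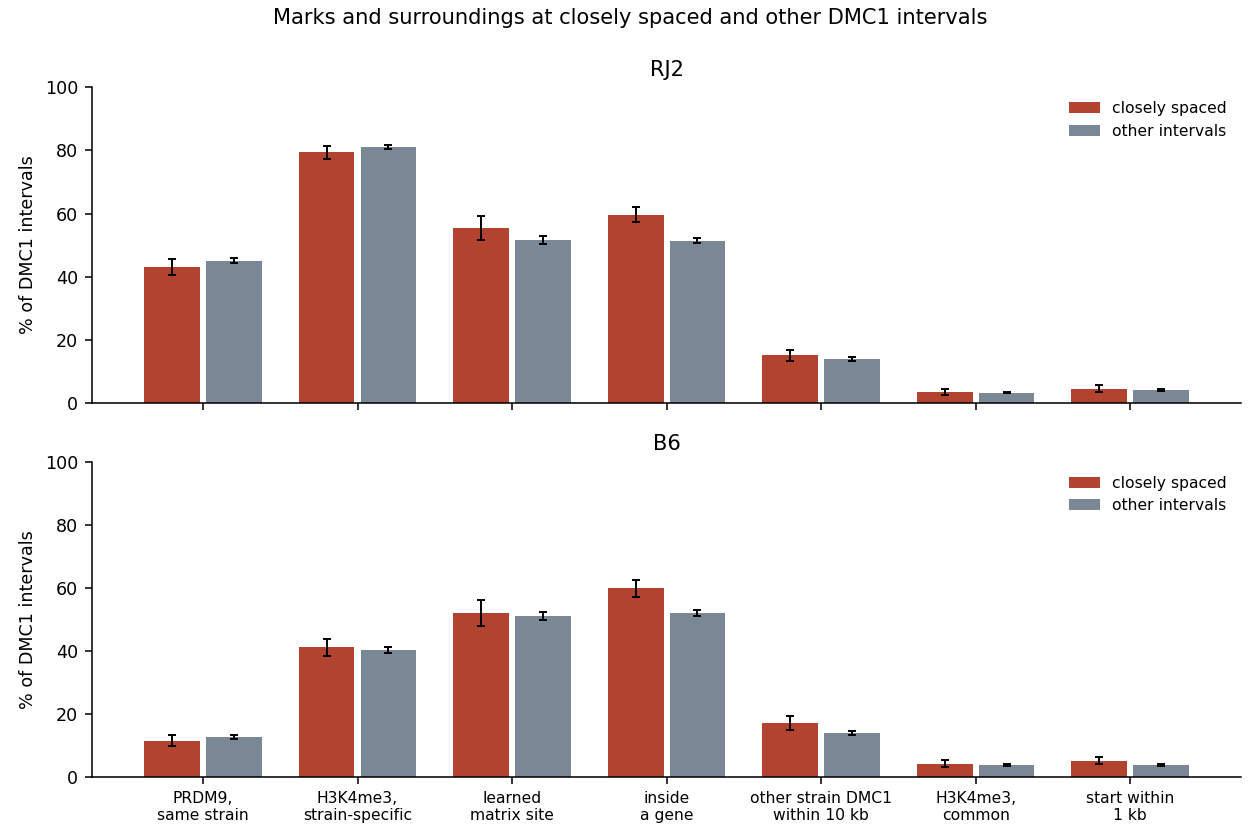
Share of DMC1 intervals (y axis, %) with each mark or surrounding, for closely spaced intervals (red) and the other intervals (grey) of RJ2 (top) and B6 (bottom), with 95% exact binomial intervals. The widest gap in both strains is that for midpoints inside a gene, at 59.7% against 51.5% in RJ2 and 59.9% against 52.0% in B6.

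Closely spaced intervals lay inside genes more often than the others in both strains. The midpoint was inside an annotated gene for 935 closely spaced RJ2 intervals (59.7%, 57.2 to 62.1%), against 51.5% of the others and 52.3% of all, and for 772 closely spaced B6 intervals (59.9%, 57.2 to 62.6%), against 52.0% of the others and 52.7% of all. The odds ratio was 1.40 in RJ2 (1.21 to 1.61, adjusted p = 2.1e-05, n = 15195) and 1.38 in B6 (1.18 to 1.61, adjusted p = 0.000122, n = 14774). This test was added after the counts had been seen. Introns made up most of the difference, with 851 closely spaced RJ2 intervals (54.3%, against 46.7% of the others) and 698 closely spaced B6 intervals (54.2%, against 47.1% of the others). Untranslated parts of exons held 36 closely spaced RJ2 midpoints (2.30%, against 2.08% of the others) and 25 closely spaced B6 midpoints (1.94%, against 2.05% of the others). Other exons held 48 in RJ2 (3.06%, against 2.65% of the others) and 49 in B6 (3.80%, against 2.91% of the others). With the number of DMC1 intervals up to 1 Mb away in the binomial model the odds ratio was 1.33 in RJ2 (adjusted p = 0.000532) and 1.34 in B6 (adjusted p = 0.000672). With the GC content of the central 1 kb in it, which had a median of 43.5% at closely spaced and 42.5% at other intervals in RJ2 and of 42.9% and 42.1% in B6, it was 1.33 in RJ2 and 1.34 in B6. With a limit of 5 kb, which left 448 RJ2 and 302 B6 intervals, the odds ratios were 1.36 and 1.41 and no longer passed (binomial regression, adjusted p = 0.0721 in both). With a limit of 20 kb the shares were 58.5% against 50.4% of the others in RJ2 and 61.6% against 50.4% in B6. The odds ratios were then 1.39 in RJ2 and 1.58 in B6, so the excess was not confined to neighbours within 10 kb.

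Gene families that lie in clusters were nearest to few DMC1 intervals of either kind. The nearest gene was an olfactory receptor gene (Olfr) for 2 closely spaced RJ2 intervals (0.128%, exact interval 0.0155 to 0.460%, against 0.536% of the others). In B6 it was for 4 (0.311%, 0.0847 to 0.793%, against 0.519%). The share of the others lay above the exact interval in RJ2 and inside it in B6, and no test was run. Zinc finger protein genes (Zfp) were nearest to 28 closely spaced RJ2 intervals (1.79%, against 1.28% of the others) and to 20 of B6 (1.55%, against 1.48%). Vomeronasal receptor (Vmn1r, Vmn2r), Ugt, Serpin and Klk genes were nearest to 0 closely spaced intervals in either strain, which for each family allows a share of up to 0.235% in RJ2 and 0.286% in B6 (exact upper limits). Their shares among the other intervals, 0.0220 to 0.132% in RJ2 and 0.0148 to 0.126% in B6, lay below these limits, so no lack was detectable. Cyp genes were nearest to 2 closely spaced intervals in RJ2 (0.128%, against 0.176% of the others) and 2 in B6 (0.155%, against 0.20% of the others).

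Closely spaced intervals were found on every chromosome, at uneven shares. On the X chromosome they were 135 of 913 intervals in RJ2 (14.8%, 12.5 to 17.3%) and 87 of 835 in B6 (10.4%, 8.43 to 12.7%). Of these, 10 in RJ2 and 11 in B6 lay in Mid1, described later. On chromosome 15 the order was the other way, with 49 of 561 in RJ2 (8.73%, 6.53 to 11.4%) and 88 of 646 in B6 (13.6%, 11.1 to 16.5%). The number of DMC1 intervals per Mb had the same order, with 5.48 in RJ2 and 5.01 in B6 on X. On chromosome 15 it was 5.42 in RJ2 and 6.24 in B6. The part of this density in the shares of single chromosomes was not tested. The lowest share was that of chromosome 13 in RJ2 (40 of 667, 6.00%) and of chromosome 3 in B6 (48 of 860, 5.58%). The Y chromosome held 9 intervals in RJ2, 4 of them closely spaced, and 11 in B6, 3 of them closely spaced.

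Both intervals of a pair tended to carry the same mark. Among the 714 RJ2 groups of 2, PRDM9 lay at both intervals in 161 pairs, at 1 in 296 and at neither in 257. The right interval carried it in 53.7% of the 300 pairs whose left interval did and in 37.9% of the 414 pairs whose left interval did not (odds ratio 1.90, 1.40 to 2.56, adjusted p = 4.3e-05, n = 714). Among the 595 B6 groups of 2, PRDM9 lay at both in 18 pairs, at 1 in 103 and at neither in 474. The right interval carried it in 27.7% of 65 pairs and in 10.6% of 530 (odds ratio 3.24, 1.76 to 5.97, adjusted p = 0.000163, n = 595). Strain-specific H3K4me3 lay at both intervals in 475 RJ2 pairs, at 1 in 192 and at neither in 47 (odds ratio 2.54, 1.68 to 3.86, adjusted p = 2.2e-05, n = 714). In B6 it lay at both in 139 pairs, at 1 in 215 and at neither in 241 (odds ratio 2.90, 2.07 to 4.06, adjusted p = 2.5e-09, n = 595). In 5 of the RJ2 pairs 1 H3K4me3 interval reached both centres. Counting these as without the mark gave an odds ratio of 2.79.

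Neighbours 10 to 50 kb apart shared marks as well, with smaller odds ratios. For PRDM9 they were 1.26 in RJ2 (1.10 to 1.44, 3601 pairs) and 1.73 in B6 (1.30 to 2.31, 3444 pairs), and for strain-specific H3K4me3 1.73 in RJ2 and 1.57 in B6. In a binomial model of both sets of pairs, the odds ratio within 10 kb was 1.51 times that of the farther neighbours for PRDM9 in RJ2 (1.09 to 2.09, adjusted p = 0.0268) and 1.85 times for H3K4me3 in B6 (1.29 to 2.66, adjusted p = 0.00353). By the same binomial model it was 1.47 times for H3K4me3 in RJ2 (0.93 to 2.32, adjusted p = 0.0988) and 1.88 times for PRDM9 in B6 (0.97 to 3.63, adjusted p = 0.0830), and these did not pass. Within 5 kb the odds ratios of sharing were 3.10 for PRDM9 and 4.98 for H3K4me3 in RJ2, and 7.45 for PRDM9 and 3.60 for H3K4me3 in B6. On the autosomes alone, the odds ratios of pairs within 10 kb were 1.78 for PRDM9 and 2.11 for H3K4me3 in RJ2, and 2.89 and 2.69 in B6, an alternative chosen after the data had been seen.

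**Figure D4:**
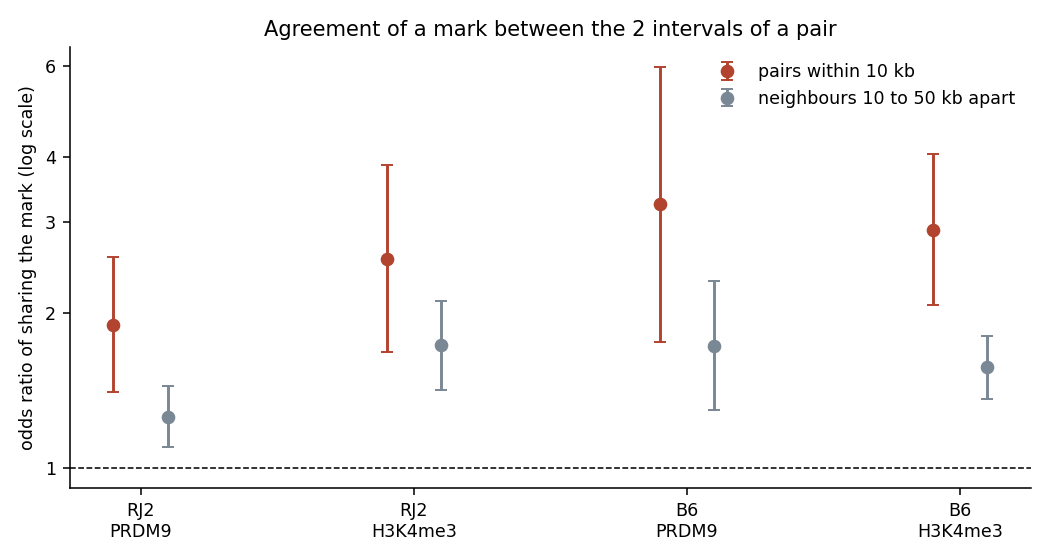
Odds ratio that the right interval of a pair carries a mark when the left one does (y axis, log scale, with 95% intervals), for pairs within 10 kb (red) and neighbours 10 to 50 kb apart (grey), by strain and mark. All 8 points lie above the dashed line at 1, and within each strain and mark the red point lies above the grey one.

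Where only 1 interval of a pair carried a mark, it was mostly the wider one. In RJ2 the median width was 1759 bp for the wider and 1483 bp for the narrower interval of a pair, and in B6 it was 1852 bp for the wider and 1546 bp for the narrower. PRDM9 lay at the wider interval in 227 of 296 such RJ2 pairs (76.7%, 71.4 to 81.4%) and in 78 of 103 such B6 pairs (75.7%, 66.3 to 83.6%). Strain-specific H3K4me3 lay at the wider one in 120 of 192 RJ2 pairs (62.5%, 55.2 to 69.4%) and in 143 of 215 B6 pairs (66.5%, 59.8 to 72.8%). An equal split lay outside each of these intervals.

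The closest pairs with PRDM9 show these combinations. In RJ2 the closest pair with PRDM9 at both was 1490 bp apart in an intron of Itpk1, an inositol phosphate kinase gene (chr12:103900164-103901355 and chr12:103901614-103902885), and both intervals carried strain-specific H3K4me3. In B6 it was 3107 bp apart on chr12:49706707-49708428 and chr12:49710018-49711331, 46610 bp from Gm1818, again with H3K4me3 at both and with PRDM9 of Spo11 KO testes at both. The closest B6 pair with PRDM9 at 1 alone was 2161 bp apart on chr12:57600069-57601670 and chr12:57602244-57603817, 32052 bp from Nkx2-1, the gene of a homeobox transcription factor, with PRDM9 at the first and H3K4me3 at both. The closest such RJ2 pair belonged to the group in Mid1.

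Few neighbours shared a long stretch of sequence. By binomial regression no difference passed: a word of 20 bases was common to the central 400 bp of both in 9 of 809 neighbouring RJ2 intervals within 10 kb (1.11%), against 23 of 3601 at 10 to 50 kb (0.639%, odds ratio 1.75, adjusted p = 0.157), and in 5 of 662 in B6 (0.755%), against 12 of 3444 (0.348%, odds ratio 2.18, adjusted p = 0.157). The longest such word in each strain is printed to show that both intervals can lie on copies of one sequence, with the shared bases in capitals and up to 20 bases on either side in lower case, all on the + strand. In RJ2 it had 149 bases within the windows compared, in a pair 2312 bp apart and 70572 bp from 1810013D10Rik, at chr5:53745352-53745520 and chr5:53747512-53747700. In B6 it had 43 bases, in a pair 6349 bp apart and 230606 bp from Fundc1, at chrX:17380052-17380134 and chrX:17386362-17386444.
RJ2 shared word, first interval: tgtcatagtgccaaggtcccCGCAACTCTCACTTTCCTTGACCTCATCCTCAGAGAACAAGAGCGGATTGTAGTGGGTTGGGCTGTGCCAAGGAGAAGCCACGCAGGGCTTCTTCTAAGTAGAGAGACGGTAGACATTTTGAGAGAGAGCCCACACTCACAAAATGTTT
RJ2 shared word, second interval: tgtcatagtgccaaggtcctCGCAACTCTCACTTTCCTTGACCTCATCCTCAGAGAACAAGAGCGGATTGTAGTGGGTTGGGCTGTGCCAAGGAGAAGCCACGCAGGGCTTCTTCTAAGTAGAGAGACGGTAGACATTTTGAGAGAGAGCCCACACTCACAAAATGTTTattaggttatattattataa
B6 shared word, first interval: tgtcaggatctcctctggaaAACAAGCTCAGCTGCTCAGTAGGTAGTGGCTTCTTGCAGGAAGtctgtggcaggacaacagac
B6 shared word, second interval: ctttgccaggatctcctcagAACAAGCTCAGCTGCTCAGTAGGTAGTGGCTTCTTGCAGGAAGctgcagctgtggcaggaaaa
None of these 4 intervals carried PRDM9, and the second RJ2 interval carried strain-specific H3K4me3.

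The largest group was the same in both strains. Mid1, which encodes a ubiquitin ligase of microtubules, lies at chrX:166123129-166443668 and in laboratory mice runs across the boundary of the pseudoautosomal region, the stretch of X and Y that pairs and crosses over in male meiosis. Breaks in this region are known to form in mice without PRDM9. A run of 7 DMC1 intervals lay in it at chrX:166407594-166436414 in RJ2 (first to last midpoint 27.0 kb) and at chrX:166407504-166436555 in B6 (27.3 kb). The midpoints of the 7 intervals differed between the strains by 12 to 249 bp (median 73 bp), so each had its counterpart despite the different Prdm9 alleles. The closest pair of each strain, 1273 bp apart in RJ2 and 1232 bp in B6, belonged to this run. The deposited PRDM9 lists of RJ2 and B6 share no position (0 of 10121 and 0 of 2601 intervals overlap), since peaks found in both strains had been taken out, so PRDM9 bound at one place in both strains could not appear here. Of the 7 intervals, PRDM9 of the same strain lay at 2 in RJ2 and at 0 in B6, strain-specific and common H3K4me3 at 0 in both strains, and a site of the learned matrix at 1 in RJ2 and at 0 in B6. PRDM9 intervals of Prdm9 KO testes lay at the 2 RJ2 and 2 B6 intervals at the sixth and seventh place of the run. PRDM9 of Spo11 KO testes, which carry the B6 allele, lay at the first B6 interval of the run. GC content of the central 1 kb ran between 40.2 and 68.7% in RJ2 and between 39.4 and 69.3% in B6.

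**Figure D5:**
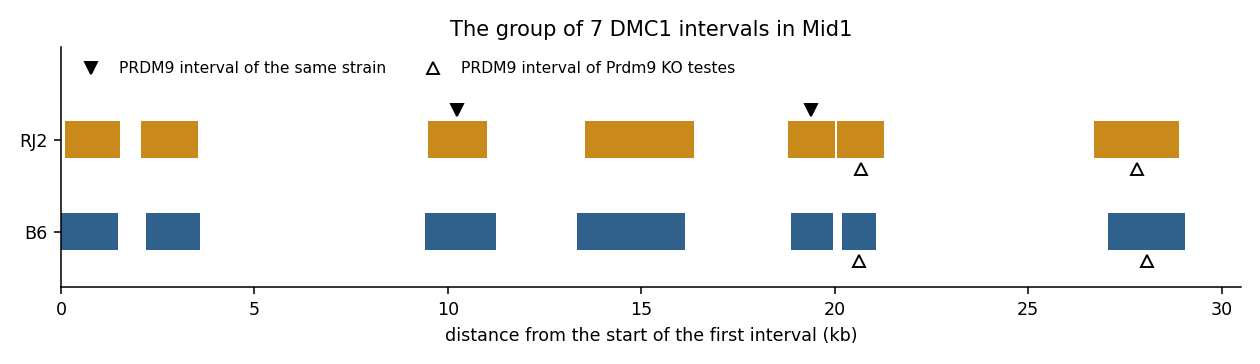
The 7 DMC1 intervals of Mid1 in RJ2 (top) and B6 (bottom) by distance from the start of the first interval (x axis, kb), with filled triangles at intervals that carry PRDM9 of the same strain and open triangles at intervals with a PRDM9 interval of Prdm9 KO testes. Every interval of one strain stands above its counterpart in the other, with midpoints 12 to 249 bp apart.

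Mid1 held 16 DMC1 intervals in RJ2, 10 of them closely spaced, and 15 in B6, 11 of them closely spaced, and 12 in each strain lay within 1 kb of an interval of the other strain. Outside it only 1 other group had at least 2 intervals within 1 kb of the other strain's, out of 758 groups in RJ2 and 626 in B6. It was a pair at Gm10801 (chr2:98502040-98508174 in RJ2 and chr2:98501966-98508173 in B6), a predicted gene, with common H3K4me3 at both intervals and no PRDM9. DMC1 had no input library, so whether this pair holds background signal was not tested. Over all closely spaced intervals, 37 of RJ2 (2.36%, against 1.67% of the others) and 32 of B6 (2.48%, against 1.73% of the others) lay within 1 kb of a midpoint of the other strain, and 8 of those 37 and 9 of those 32 lay in Mid1. PRDM9 of the other strain lay at 0 closely spaced RJ2 intervals, which allows a share of up to 0.235% (5 of the 13628 others), and at 15 closely spaced B6 intervals (1.16%, against 0.393% of the others), 12 of them outside Mid1. Without Mid1 the odds ratio for a DMC1 midpoint of the other strain within 10 kb was 1.05 in RJ2 and 1.21 in B6 (binomial regression, adjusted p = 0.768 in RJ2 and 0.562 in B6).

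The other large groups belonged to 1 strain each. In RJ2 a group of 4 covered chr6:131375637-131396332 between Csda and 5430401F13Rik, with strain-specific H3K4me3 at all 4 intervals, PRDM9 at 3, and no B6 interval within 182 kb. Another of the 3 RJ2 groups of 4 lay on chromosome 18 at Mapre2, with PRDM9 and H3K4me3 at 3 intervals, and its first interval was 1077 bp from a B6 midpoint. In B6 a group of 4 covered chr10:20698538-20715780 inside Ahi1, a gene needed for primary cilia, with no PRDM9 and no H3K4me3 at any of them. One of the 29 B6 groups of 3 covered chr16:45171181-45178550 in introns of Atg3, an autophagy gene, with common H3K4me3 at 1 interval and no PRDM9. A site of the learned matrix lay at every interval of the Ahi1 and Atg3 groups. In RJ2 a site lay at all but the last interval of the chromosome 6 group and at all but the first at Mapre2. Over all intervals PRDM9 lay at 44.9% in RJ2 and 12.6% in B6, and strain-specific H3K4me3 at 80.9% in RJ2 and 40.4% in B6. On even-numbered chromosomes, where these groups lie, a matrix site lay at 52.1% of all RJ2 and 51.2% of all B6 intervals.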

How the data were processed

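The members, gene families and comparisons were chosen with earlier results of these data known. Per the labels and the study's methods, the authors aligned reads to mm9 with Bowtie, Bowtie2 or, for DMC1, a BWA procedure for single-stranded DNA, and called peaks with MACS. The number of DMC1 and PRDM9 peaks was set by the irreproducible discovery rate between replicates. Per the study's methods, PRDM9 peaks over those of Prdm9 KO testes and peaks shared by the strains were removed. In the deposited lists 0 PRDM9 intervals overlap between the strains, and 252 in RJ2 and 2 in B6 overlap a Prdm9 KO interval. The deposited lists hold positions pooled over replicates, with no score, count or depth, so intervals cover sampling only. Depth per library was not used. Lists were read as they are. Genes came from GENCODE vM1 and sequence from NCBIM37, the same build as mm9. Marks were compared by logistic regression (statsmodels 0.14.6, Python 3.11.15) with errors by group of neighbours, shares by Clopper-Pearson intervals, and p-values adjusted by Benjamini-Hochberg. Fits were tested on simulated data. Regions were named by a rule: the closest pairs, the 3 largest groups, the widest interval, the pairs beside the limit, the longest shared word, and the intervals nearest to a start or to the other strain. The alternatives were other limits, edge distances, other overlaps, 1 interval per group, covariates, autosomes only and Fisher's exact test. H3K36me3 libraries were not analysed here. The B6 interval nearest to a start is not reported here.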

Additional observations from a re-analysis of the deposited data

How the results depend on the processing

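Of 347 values under alternatives, 309 kept their direction and their side of the threshold or moved within their limits, and 25 odds ratios or ratios of odds ratios changed direction, none of which passed the test before or after; the cause was not tested. The number of closely spaced intervals was 448 in RJ2 and 302 in B6 with a limit of 5 kb, and 3492 in RJ2 and 3044 in B6 with 20 kb. With 5 kb the odds ratio turned to 1.07 (PRDM9) and 1.24 (word) in RJ2, and to 0.964 (common H3K4me3), 0.866 (DMC1 of the other strain) and 0.849 (matrix site) in B6, the ratio of RJ2 over B6 to 1.35, 1.72 and 1.02 (common H3K4me3, DMC1 of the other strain, transcription start), and that for midpoints inside a gene was 1.36 in RJ2 and 1.41 in B6, no longer past the threshold. With 20 kb the B6 word turned to 0.913, and the ratios of RJ2 over B6 to 0.963 (PRDM9), 1.19 (common H3K4me3), 1.04 (DMC1 of the other strain) and 1.02 (word). With width in the model the odds ratio turned to 1.18 (PRDM9) and 1.08 (H3K4me3) in RJ2, and to 1.13 (PRDM9), 1.05 (PRDM9 of Spo11 KO testes) and 0.999 (matrix site) in B6, and 1.33 (H3K4me3 in B6) passed. With GC content in it, RJ2 turned to 0.991 (common H3K4me3) and 0.978 (transcription start), and the ratio for PRDM9 to 0.983. With at least 200 bp covered, common H3K4me3 in RJ2 turned to 0.971 and the ratio for Prdm9 KO intervals to 1.87. With 1 interval per group, always the leftmost, common H3K4me3 in B6 turned to 0.938 and its ratio to 1.29. In that setting H3K4me3 in RJ2 was 0.764 and passed, and keeping the rightmost was not tested. By Fisher's exact test, which takes neighbours as independent, DMC1 of the other strain in B6 was 1.27 and passed. For close over far pairs, widths in the model gave 2.32 (PRDM9 in B6) and 1.63 (H3K4me3 in RJ2) and pairs within 5 kb gave 4.31 and 2.88, which then passed. Sharing of a mark within pairs passed under each of the 7 alternatives tried for pairs, in both strains. The alternative of unmasked bases was not run, since the genome used marks no repeats. No paired analysis was possible because the lists are pooled over replicates, and for the same reason no replicate could be left out. The alternatives without Mid1, those of close over far pairs, of the matrix and of midpoints in genes, and autosomes or GC content for pairs, were chosen after seeing the data.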
